A study of Mus musculus with 3 samples.

Results

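Seed matches of the miR-30 family that lay under Argonaute 2 (Ago2) peaks in 3′UTRs are described here. Members were chosen by cover: 3′UTR stretches of at least 8 nt, on the strand of the gene, that peaks of at least 2 of the 3 libraries covered and that held a match to positions 2 to 8 of miR-30a-5p. Of 30343 stretches of this kind in all 3′UTRs, 552 held such a match. They carried 567 of the 3503 matches found in the longest 3′UTR of each protein-coding gene, and came from 495 of the 2895 genes with a match. The other 132 matches of the same 3′UTRs served as the comparison, and 99 of the 3′UTRs held both kinds. Cover and reproducibility therefore chose the members and are given as description only.

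Ago2 HITS‐clip was performed on N2A cells, a mouse neuroblastoma line, under basal conditions, and all 3 libraries formed 1 group without another genotype or treatment. Cells were crosslinked with ultraviolet light at 400 mJ/cm2 in 1 exposure and at 200 mJ/cm2 in 2 exposures, and Ago2 was precipitated with the antibody clone 2D4. The libraries held 711377, 498071 and 829936 peaks of a median width of 83, 84 and 85 nt. Read depth is unknown, and nothing in the labels says that the samples were separate cultures. P-values of tests over the 3 libraries thus measure only the spread between these libraries, which may be technical. Those of the logistic regressions below take matches as the units and hold no spread between libraries. Of 14 neuroblast and sympathetic marker genes, 11 had a 3′UTR stretch covered in at least 2 libraries, Stmn2 and Elavl4 among them. Of the 14 markers of myeloid cells, oligodendrocytes, astrocytes, hepatocytes and muscle, 2 had one. Over all genes with a 3′UTR, 34.6% had one.

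MicroRNAs are short RNAs that guide Argonaute proteins to transcripts, mainly by pairing of the seed at their 5′ end with sites in 3′UTRs, which lowers the stability and translation of the transcript. The miR-30 family is broadly expressed, in brain among other tissues, and is known for targets in autophagy, the cell cycle, mesenchymal genes and the silencing machinery itself. An A after the seed match, A/U-rich flanks and pairing of the 3′ part of the miRNA are known to accompany stronger sites.

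The mature sequences define the match that was searched. They are printed 5′ to 3′ from RefSeq (GRCm38.p6), with bases 2 to 8 in capitals.
miR-30a-5p: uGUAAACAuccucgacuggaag
miR-30c-5p: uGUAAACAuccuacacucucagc
miR-30e-5p: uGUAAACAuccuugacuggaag
miR-384-5p: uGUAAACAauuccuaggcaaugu
miR-30f: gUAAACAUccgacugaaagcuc
The first 4 share the seed GUAAACA, so their matches, written TGTTTAC on the transcript, cannot be told apart. Beyond the seed, miR-30a-5p and miR-30e-5p differ little and miR-30c-5p and miR-384-5p have other 3′ parts. The seed of miR-30f begins a base further along. Mir30b and Mir30d also belong to the family.

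Ago2 peaks also lay on the miR-30 hairpins themselves, which Ago2 holds as the mature miRNA. Mir30a (mm10 chr1:23272269-23272339, plus strand) had 1 peak in each library. Mir30e (chr4:120772606-120772697, minus strand) likewise had 1 peak in each library. Mir30d (chr15:68341208-68341289, minus strand) had 2 peaks in replicate 1 and 1 in each of replicates 2 and 3. These hairpins were thus covered in all 3 libraries, on the strand of the gene. Mir30c-2 had a peak in replicates 2 and 3, that of replicate 2 being 2265 nt wide, Mir30c-1 had 1 in replicate 2, and Mir30b had 2 in replicate 3. Mir384 had 2 peaks in each of replicates 2 and 3 and none in replicate 1. On the opposite strand, Mir30e had a peak in replicate 2 and Mir30b in replicate 3, and none of the 6 hairpins of Mir30a to Mir30e had one in 2 libraries. The peak opposite Mir30e lies on the strand of Mir30f. Peaks give no amount, so the levels of the miRNAs are not known from these files.

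6 sites of members are shown for the results they carry. They are spans of 22 nt that end at the base opposite position 1 of the miRNA, with the seed match in capitals, and with the following base also in capitals where it is A. The first lies in the shortest stretch of any 8mer site covered in all 3 libraries, the next pair comes from the gene with the most matches covered in all 3, and the others are from known targets.
Nr4a2, chr2:57106856-57106877, minus strand: aaagacaattttaaTGTTTACA
Tnrc6a, chr7:123193659-123193680, plus strand: acggtgaaccttctTGTTTACA
Tnrc6a, chr7:123193698-123193719, plus strand: tttgagaaaaaaaaTGTTTACt
Mtdh, chr15:34140774-34140795, plus strand: ctgaattggacatgTGTTTACA
Becn1, chr11:101288712-101288733, minus strand: aatattaaaccacaTGTTTACA
Ccne2, chr4:11203334-11203355, plus strand: tataaaagagaactTGTTTACA
Coordinates are mm10, all 6 sites lie in annotated 3′UTRs, and the second site of Tnrc6a is the only one of them not followed by A.

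Cover of the members was uneven between libraries. Of the 567 member matches, 102 were covered in all 3 libraries, 373 in replicates 2 and 3 only, 48 in replicates 1 and 2 only and 44 in replicates 1 and 3 only. Replicate 1 covered 297 of all matches in 3′UTRs, against 892 in replicate 2 and 812 in replicate 3, so replicates 2 and 3 together set most of the membership. Without replicate 2 or without replicate 3 the count fell to 146 and 150 matches. The member stretches had a median length of 124.5 nt, with quartiles of 89 and 216.25 nt, while all covered 3′UTR stretches had a median of 86 nt. A longer stretch has more room for a match. 3 member stretches were under 20 nt. At the limit of the rule, the shortest stretches with a match were those of Tor1b with 10 nt, Mia2 with 12 nt and Rplp0 with 19 nt. Just outside it, 59 matches had 1 to 6 of their 7 nt covered in at least 2 libraries, 13 of them with 6 nt, and no match lay in a covered stretch of exactly 7 nt. Of all 7-nt windows of 3′UTRs, 9.8% lay inside a stretch covered in at least 2 libraries, and of the miR-30 matches 16.2% did. Part of that gap belongs to which 3′UTRs hold matches, because windows of the same 3′UTR gave an expected 446.9 matches and the observed number was 1.27 times that.

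Seed matches of miR-30 were under peaks somewhat more often than other windows of the same 3′UTRs in each library. In replicate 1, 297 matches lay under peaks and 255 were expected from the share of each 3′UTR that was covered. In replicate 2 the numbers were 892 and 750.5, and in replicate 3 they were 813 and 709.1. The ratio of observed to expected was 1.17 ± 0.0211 (mean ± SD, n = 3). Here a match shared by overlapping genes counts for each gene, which gives 3506 matches in all.

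A large part of this ratio was common to 7-mers of the same base composition. The median ratio of the 2525 7-mers with 5 A or T letters was 1.10, 1.08 and 1.10 in replicates 1, 2 and 3. Relative to this median, the miR-30 match had log2 values of 0.09, 0.14 and 0.06. Their mean of 0.09 ± 0.04 (SD, n = 3) was above 0 in 3 of 3 libraries but did not pass the test (limma, adjusted p = 0.227 over 11900 7-mers). Of these 7-mers, 0.084% passed with a density above the class median. Within its class the miR-30 match ranked 277 of 2525. With peaks of 86 to 200 nt only, or with 30 nt trimmed from each side of the peaks, the mean was 0.17 and 0.21 and did not pass either. It passed with all covered 3′UTRs pooled, at 0.36 (adjusted p = 0.0117), and without the class median, at 0.22 (adjusted p = 0.0016), and with the strand of the peaks reversed it was -0.04.

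The 7-mers next to the seed match were compared along the miRNA. The 7-mer pairing with positions 1 to 7, GTTTACA, had centred log2 values of 0.20, 0.13 and 0.03 and a mean of 0.12 ± 0.09 (SD, n = 3; limma adjusted p = 0.203). The 7-mer opposite positions 3 to 9, which is also the seed match of miR-30f, had a mean of -0.01 ± 0.08. Opposite positions 4 to 10, the mean was -0.03 ± 0.07. Thus the first pair of 7-mers was above 0 in all libraries and the next pair was not, with no 7-mer among them past the threshold. Values of this size were not restricted to the seed end. The 7-mer opposite positions 10 to 16 of miR-30e-5p, GTCAAGG, had 0.06, 0.09 and 0.14 and a mean of 0.10 ± 0.04 (adjusted p = 0.209). The 7-mer opposite positions 12 to 18 of miR-30c-5p, GAGTGTA, had a mean of 0.18 ± 0.04 (adjusted p = 0.0880). Both means were above that of the seed match. 7-mers with fewer than 500 matches in 3′UTRs were left out.

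**Figure D1:**
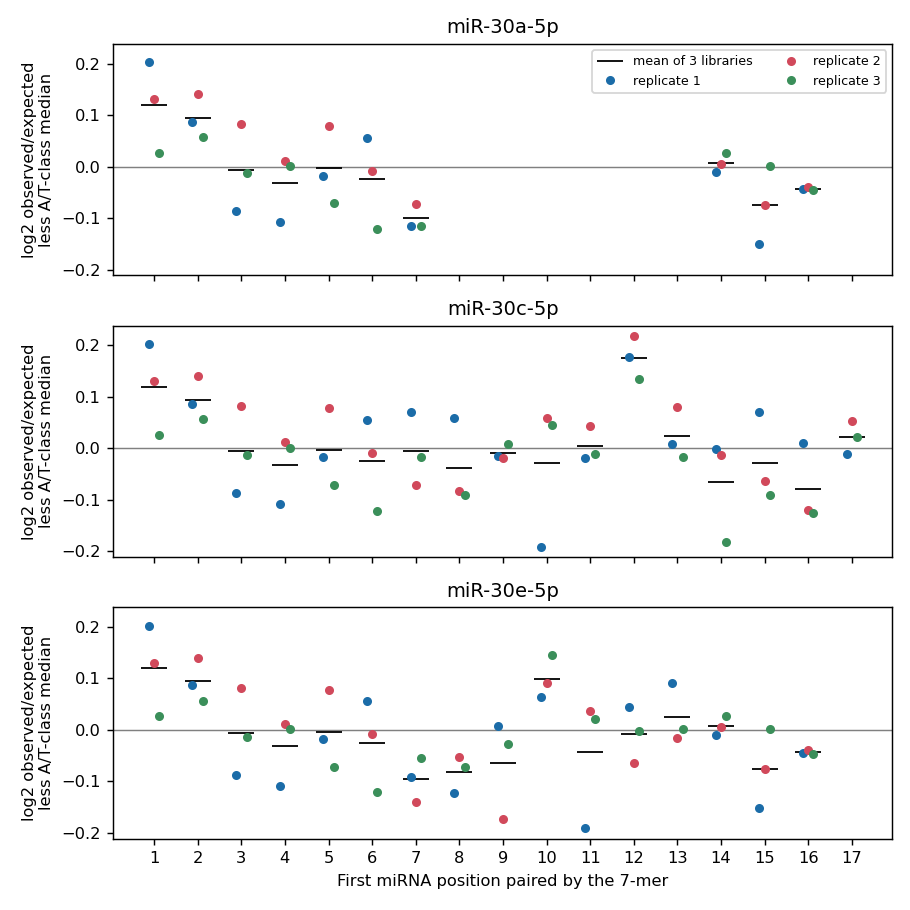
Centred log2 ratio of observed to expected 7-mers under peaks (y axis) for 7-mers pairing with successive positions of 3 miR-30 members (x axis, first paired position). Points are the libraries and short lines their mean; the values at positions 1 and 2, at position 12 of miR-30c-5p and at position 10 of miR-30e-5p are above 0 in all 3 libraries, and gaps are 7-mers with fewer than 500 matches.

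Matches of other miRNAs, whose presence in these cells was not examined, gave a scale for this value. The let-7 match had a centred log2 density of 0.30 ± 0.06 (SD, n = 3; limma adjusted p = 0.0448) and that of miR-19 had 0.25 ± 0.06 (adjusted p = 0.0602). The match of miR-9-5p had 0.07 ± 0.10 (adjusted p = 0.442). On this scale let-7 and miR-19 stood above miR-30 in each library, by 0.21 ± 0.03 and 0.16 ± 0.02 on average. The order depends on the centring, since these matches belong to classes with 3, 4 and 5 A or T letters. Before centring, the observed to expected ratio was 1.07, 1.18 and 1.08 for let-7, below miR-30 in all 3 libraries, and 1.17, 1.24 and 1.13 for miR-19, below miR-30 in replicate 3. With 3 libraries the exact two-sided sign test of a centred difference cannot go below 0.25, which was its value for both. For miR-9-5p the difference had both signs, with a mean of -0.02 ± 0.13 (exact sign test, p = 1). Some stretches were shared. Of the 552 miR-30 stretches, 8 (1.45%) also held a let-7 match, 19 (3.44%) a miR-19 match and 15 (2.72%) a miR-9-5p match. Of all 30343 stretches, 0.758%, 1.38% and 0.982% held such a match, but the miR-30 stretches were also longer. The shared ones made up 3.48%, 4.53% and 5.03% of the stretches of those miRNAs. The stretch in Socs1, a suppressor of cytokine signalling, held both let-7 and miR-19 matches.

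Cover around all 3506 matches, members or not, was higher at the match than 150 nt away. At the match it was 1.15, 1.18 and 1.14 times the mean cover of the same 3′UTR in replicates 1, 2 and 3. No profile was made of other 7-mers of the same composition, whose median ratio under peaks was 1.10, 1.08 and 1.10. Matches of let-7 had 1.06, 1.18 and 1.08, those of miR-19 1.13, 1.22 and 1.13, and those of miR-9-5p 1.12, 0.980 and 1.02. The highest points of the miR-30 profile were 1.17 at 10 nt downstream in replicate 1, 1.19 at 20 nt upstream in replicate 2 and 1.17 at 25 nt downstream in replicate 3. At 150 nt upstream the values were 1.00, 1.03 and 1.02, and at 150 nt downstream 1.01, 1.03 and 1.01. At 100 nt upstream they were 1.02, 1.09 and 0.991, and at 100 nt downstream 1.01, 1.05 and 1.06. All libraries thus had a broad rise around the match, and the summit had no common side. In replicate 2 the rise reached beyond a peak's width on the upstream side.

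**Figure D2:**
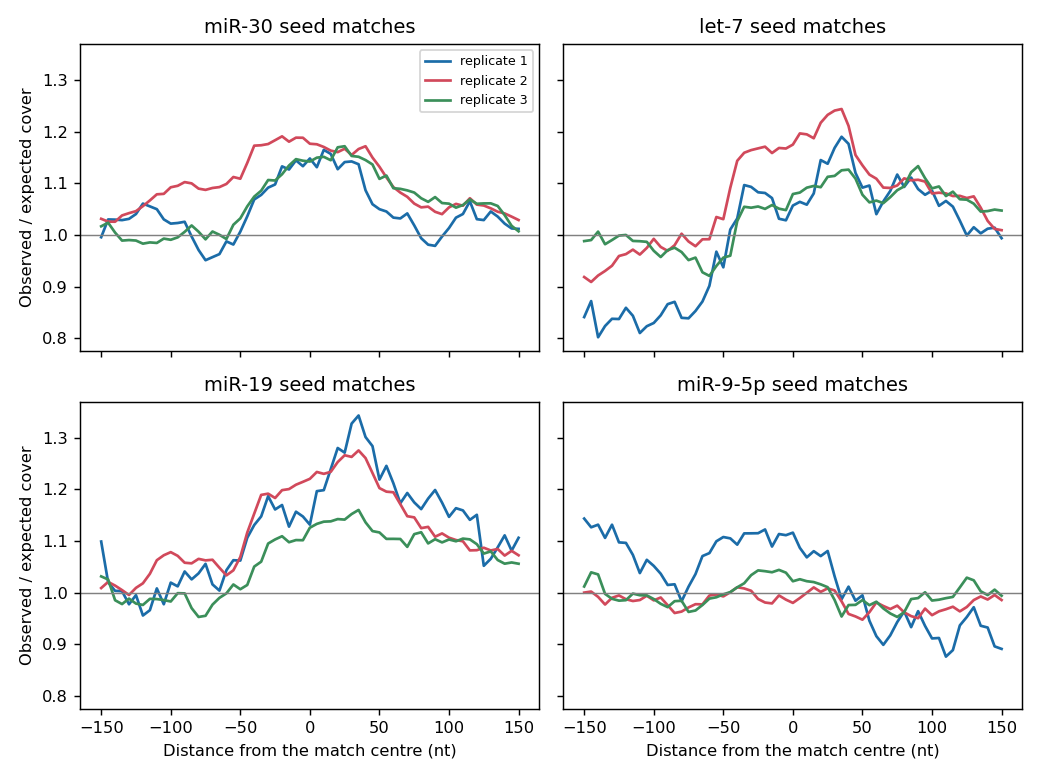
Observed over expected cover (y axis) by distance from the centre of the seed match in nt (x axis; negative is upstream), for all matches of 4 miRNAs in 3′UTRs, with a line for each library. For miR-30 the 3 libraries lie between 1.14 and 1.18 at the match and between 1.00 and 1.03 at 150 nt on the upstream side.

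Inside the member stretches, matches lay near the middle slightly more often than other windows. Median distance from the centre of the stretch was 26 nt for members and 29 nt for all 7-nt windows of the same stretches. Of the members, 210 (37.0%) lay in the central part that held 33.4% of the windows. In single libraries, 38.7%, 40.4% and 35.8% of the covered matches lay in the central part of their stretch. The rule required a match inside the stretch and not at any place in it, and no test was made of these shares.

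Next to the match, an A stood more often in covered matches over all 3′UTRs. Matches followed by A, called 8mer sites, had an observed to expected ratio of 1.35, 1.26 and 1.19 in replicates 1, 2 and 3. For matches followed by C it was 0.709, 1.07 and 1.01. For those followed by T it was 1.16, 1.15 and 1.13. Means were 1.27 ± 0.0798 for A, 0.930 ± 0.194 for C and 1.15 ± 0.0162 for T (SD, n = 3). For the few matches followed by G it was 0.925, 1.13 and 1.29. Values for A thus lay above those for C and T in all libraries and overlapped with those for G. For the base before the match, the ratio with A was 1.13, 1.30 and 1.24 in replicates 1, 2 and 3, with C 1.21, 1.23 and 1.11 and with T 1.21, 1.12 and 1.15. With G it was 1.09, 1.09 and 1.06. Here A was above G in all libraries and overlapped with C and T. For cover in at least 2 libraries the ratio was 1.44 with A before and 1.38 with A after, and for cover in all 3 it was 1.32 and 1.47. On the log2 scale, matches with A after exceeded those without by 0.24 ± 0.18 (SD, n = 3), higher in 3 of 3 libraries. The median of the 2525 7-mers of the class was 0.07, and the value of miR-30 did not pass the test over that class (limma, adjusted p = 0.283), nor did that of any other 7-mer there. Its unadjusted p was 0.0223, and 8mer sites made up 44.8% of all matches.

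Within the same 3′UTRs a following A did not pass the test. Of the members, 295 (52.0%) were 8mer sites, and of the other matches 66 (50.0%) were. Conditional logistic regression with the 3′UTR as stratum took 5 features of each match together, over 247 matches in the 99 3′UTRs that held both kinds. The odds ratio for a following A was 1.14 (95% interval 0.642 to 2.04, adjusted p = 0.700), and single libraries gave 1.499, 1.14 and 1.44. Its interval reaches from a lower to a clearly higher chance of cover, so these matches do not decide whether there is a difference.

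Covered matches had flanks richer in A and U. The share of A and U in the 30 nt on each side had a median of 63.3% in members and 58.3% in the other matches. Averaged within each of the 99 3′UTRs, it was 62.4% for members and 58.4% for others, and members were higher in 66 of them. The odds of cover were 1.75 times higher for each 10 percentage points (95% interval 1.20 to 2.53, adjusted p = 0.0161). The interval and p-value take matches, not libraries, as the units. Single libraries gave 1.62, 1.36 and 1.48. Leaving out each library in turn lost this call, with odds ratios of 1.60, 1.31 and 1.41 without replicates 1, 2 and 3, and with peaks of 86 to 200 nt only, at 1.40 (adjusted p = 0.244). All 7-nt windows of these 3′UTRs were compared in the same way: covered windows exceeded uncovered ones by 4.96 ± 4.61 percentage points (SD over 3′UTRs), and were higher in 90 of 99. Covered miR-30 matches exceeded the others by 3.97 ± 11.2 points, which is not more than the difference for covered sequence at large.

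The other 3 features did not pass the test within 3′UTRs. The odds ratio was 0.836 for each doubling of the distance to the nearer end of the 3′UTR (95% interval 0.678 to 1.03, adjusted p = 0.238). Members had a median distance of 480 nt to that end and the other matches 1073 nt, but the others also lay in longer 3′UTRs, with a median of 4334.5 nt against 2746 nt. The annotated 3′UTR of D10Wsu102e, 122583 nt long, alone supplied 17 of the 132 other matches. Without it the others had medians of 968 nt to the nearer end and 3742 nt of length, and no feature changed its call. Without strata, in a plain logistic regression, distance did pass the test, with an odds ratio of 0.642 (adjusted p = 4.99e-11). That fit took all 699 matches of the member 3′UTRs as independent. 3′UTRs without a comparison match gave it members only, so distance and 3′UTR length cannot be told apart there. Matches to bases 13 to 16 of a miR-30 within 15 nt upstream, which would allow pairing of the 3′ part, occurred beside 75 members (13.2%) and 14 others (10.6%). Their odds ratio was 1.66 (95% interval 0.700 to 3.93, adjusted p = 0.418). Another miR-30 match lay within 60 nt of 18 members and 6 others, with an odds ratio of 0.655 (95% interval 0.0762 to 5.64, adjusted p = 0.700), and for replicate 1 this feature had no finite estimate and was left out.

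**Figure D3:**
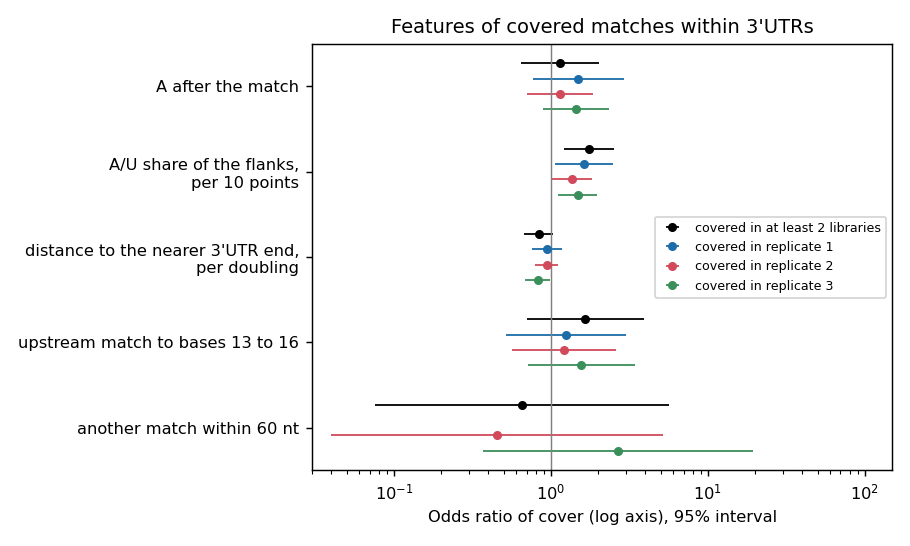
Odds ratios of cover with 95% intervals (x axis, log scale) for 5 features of miR-30 matches within the same 3′UTR (y axis), for cover in at least 2 libraries and in each library. The A/U share of the flanks is above 1 in all 4 fits, at 1.75 for at least 2 libraries, and the intervals of the other features mostly include 1.

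**Figure D4:**
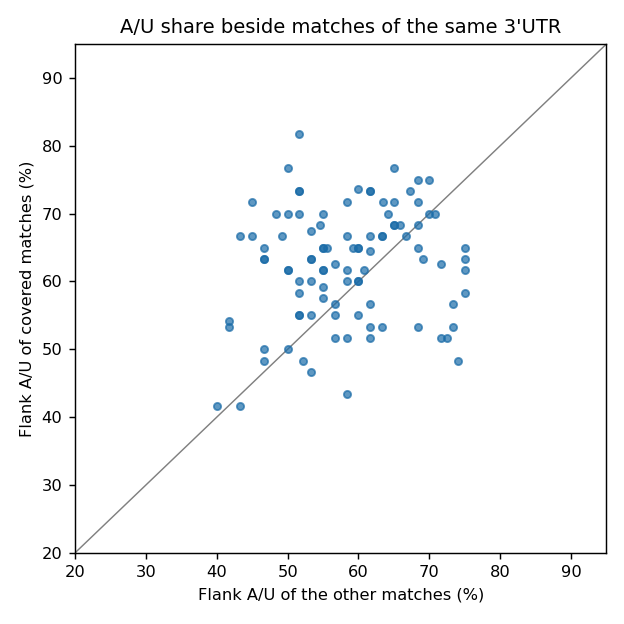
A/U share of the 30 nt on each side of covered matches (y axis, %) against that of the other matches (x axis, %), with a point for each of the 99 3′UTRs that held both and a line of equality. The members lie above the line in 66 of 99 3′UTRs.

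Along the 3′UTR, members were most frequent near the stop codon. With each 3′UTR divided into 4 parts of equal length, 181 members (31.9%) lay in the part next to the stop codon, 138 (24.3%) and 103 (18.2%) in the middle parts and 145 (25.6%) in the part at the 3′ end. All covered windows had 28.4%, 24.9%, 22.3% and 24.4% there, and so were also most frequent next to the stop codon and least frequent in the part before the last. Of the other matches, 21 (15.9%) lay next to the stop codon and 42 (31.8%) at the 3′ end.

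Cover in a library that took no part in the choice was higher for matches chosen by the other 2, as it was for all 7-nt windows. Of 475 matches covered in replicates 2 and 3, replicate 1 covered 102 (21.5%, 95% Wilson interval 18.02% to 25.4%), and of the 118 other matches of those 3′UTRs it covered 13 (11.0%, 6.55% to 17.9%). Replicate 2 covered 69.9% of 146 chosen matches and 53.6% of 56 others. Replicate 3 covered 102 of 150 chosen matches and 29 of 49 others (59.2%). All 3 libraries covered the chosen matches more often, by a ratio of 1.47 ± 0.424 (SD, n = 3). For all 7-nt windows the same ratio was 2.12 ± 0.330. It was above that of the matches in each library, at 2.50, 1.94 and 1.92 against 1.95, 1.30 and 1.15. With 30 nt trimmed from each side of the peaks, the ratio for the matches was 2.93 ± 2.20, a spread too wide to place it above or below that of all windows. The intervals of replicates 2 and 3 overlapped between chosen and other matches.

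Known miR-30 targets were listed from general knowledge. Of the 30 genes, 23 had a match and 14 of these held a member, with 21 of their 38 matches. Over all genes with a match 17.1% held a member, and over those that also had a stretch covered in at least 2 libraries 32.2% did. Of the 30 listed genes, 23 had such a stretch. The list thus had a larger share of covered 3′UTRs than the 34.6% of all genes, and no test was made of its count. The 32.2% already leaves out genes without such a stretch. The 23 genes with a match still include Dll4, Prdm1, Sema3a and Snai1, which had none.

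Tnrc6a, a partner of Argonaute in silencing, had 4 matches in its 3′UTR of 2345 nt, and every one was covered in all 3 libraries. The sites printed above are the middle pair, which share a stretch of 153 nt. Among all member genes it had the most matches covered in every library.

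Mtdh, which encodes metadherin, had 3 matches, all members and all followed by A. The first, 25 nt after the stop codon, was covered in all 3 libraries, and the other 2 in replicates 2 and 3. Ccne2, the cyclin E2 gene, had 2 members, of which that 249 nt after the stop codon was covered in all 3 libraries. Gnai2, a G protein subunit gene, also had 2 members, with the one nearer to the stop codon covered in all 3. Socs1 had its single match covered in all 3 libraries.

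The single matches of Becn1, a core autophagy gene, and Socs3, another suppressor of cytokine signalling, were covered in replicates 1 and 2 but not in replicate 3. That of Adam19, a metalloprotease gene, was covered in replicates 1 and 3. Matches of Camk2d, a calmodulin-dependent kinase gene, Eed, a Polycomb subunit gene, and Ppp3r1, the calcineurin regulatory subunit gene, were covered in replicates 2 and 3. Some targets had only part of their matches covered: 1 of 5 in Celsr3, 1 of 2 in Lhx1 and 1 of 2 in Nt5e.

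9 listed targets with a match held no member. The matches of Atg5 and Atg12, both autophagy genes, and of Ddit4 were covered in replicate 2 only, as were the 3 matches of Runx2. The match of Prdm1 was covered in replicate 1 only. Those of Dll4, Itgb3, Sema3a and Snai1 were covered in no library. For Dll4, Prdm1, Sema3a and Snai1 no stretch of the whole 3′UTR was covered in 2 libraries. In single libraries, Prdm1 had 1 stretch in each of replicates 1 and 2. In replicate 2, Sema3a had 3 and Snai1 had 1, and Dll4 had none in any library. For these genes, absence of the transcript from the cells cannot be told apart from absence of binding.

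**Figure D5:**
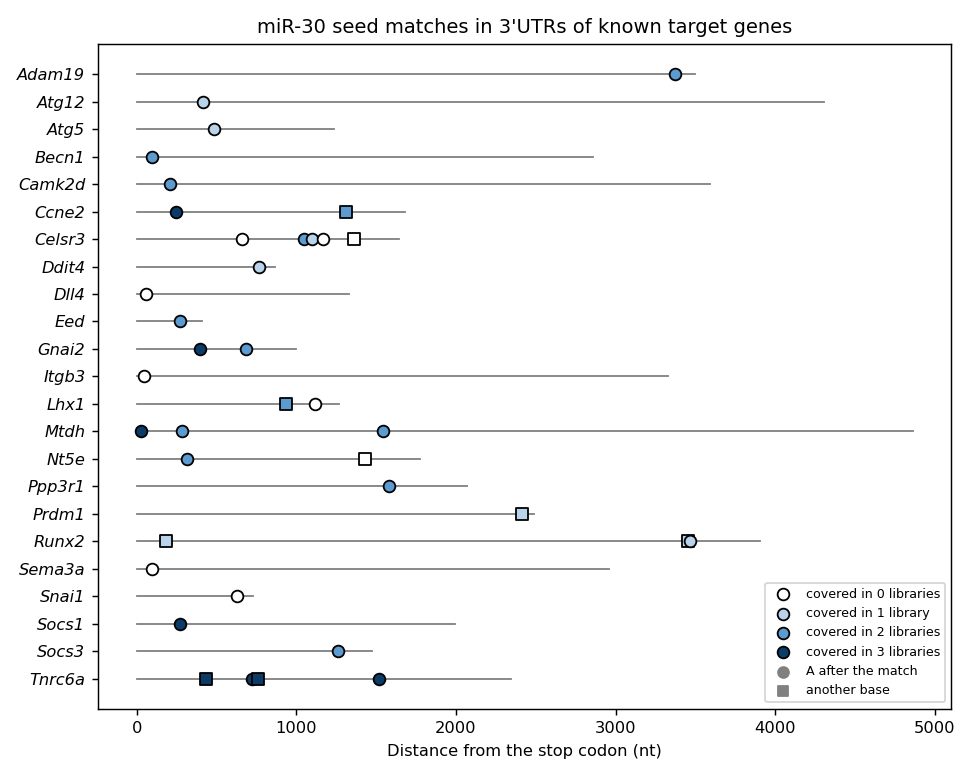
Seed matches in the 23 known target genes with a match, by distance from the stop codon in nt (x axis), with the line of each gene (y axis) as long as its 3′UTR. Darker symbols were covered in more libraries and circles are followed by A; the 4 matches of Tnrc6a are all at 3 libraries.

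Of 20 listed RNA silencing genes, 9 had a match and 5 held a member, with 12 of 20 matches, against 17.1% over all genes with a match and 32.2% over those that also had a covered stretch. Of the 20 genes, 18 had a covered stretch, against 34.6% of all genes, and no test was made of the count. The 9 genes with a match include Ago4, which had no covered stretch, while the 32.2% leaves such genes out. Besides Tnrc6a, its relatives Tnrc6b, with 2 of 3 matches, and Tnrc6c, with both of 2, held members. So did Ago2 itself, with 2 of 3, and Cnot6, a deadenylase gene, with both of 2. The 3′UTRs of Ago2 and Tnrc6b are 11064 and 11609 nt long and held 41 and 38 covered stretches. Tnrc6a is on this list and on that of known targets.

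In the other pathway lists, the shares are to be read against the 17.1% of all genes with a match that held a member, and the 32.2% of those that also had a covered stretch. From 48.1% to 72.7% of the genes of these lists had a covered stretch. Genes with a match and no covered stretch, such as Map1lc3b and Sema3c, are counted here but not in the 32.2%. In autophagy 5 of 20 genes had a match and Becn1 alone held a member. Of 33 ubiquitin and SUMO conjugation genes 7 had a match and none of those listed held a member. The list is not complete: Ube2t, a ubiquitin-conjugating gene outside it, held a member covered in all 3 libraries, and was singled out after its values were seen. In the calcineurin and NFAT list, 4 of 12 genes had a match, and Ppp3r1 and Nfat5 held members. Of 17 genes of mesenchymal transition and TGF-beta signalling 6 had a match, and Smad2 and Tgfbr1, a signal transducer and a receptor of the pathway, held members. Among 27 axon guidance genes 13 had a match, and Unc5c, a netrin receptor gene, and Celsr3 held members. The marker gene Elavl4, a neuronal RNA-binding protein gene, held 1 member.

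In 61 genes, 2 or more matches of the 3′UTR were members. Cpsf6, a subunit of the factor that guides cleavage and polyadenylation, had 5 matches in 5 stretches of its 3′UTR of 4798 nt, all members, of which 2 were covered in all 3 libraries. Lin28b, which blocks the maturation of let-7, had 3 members, each an 8mer site covered in replicates 2 and 3. Ptgfrn had 3 members in 2 stretches, all covered in every library. Samd8 had 3 of 4 matches as members, while Zcchc2 and Zdhhc20, a palmitoyltransferase gene, had 3 of 3. Adam22, a neuronal receptor gene, had a pair of matches in a stretch of 62 nt. Ado had 2 of 3.

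Among 8mer sites covered in all 3 libraries, those in the shortest stretches were taken, with the length again that of the stretch covered in at least 2 libraries. Nr4a2, a nuclear receptor of dopamine neurons, had the shortest, 58 nt, with the match 1.5 nt from its centre and 27 nt before the end of the 3′UTR. Naa25 and Smg6, an endonuclease gene of nonsense-mediated decay, followed with 91 nt, and their matches were 9 and 5 nt from the centre. Etaa1, an activator of the ATR kinase, had 92 nt and a match 4.5 nt from the centre. The next were Mafg with 93 nt, Spast, the gene of the microtubule-severing protein spastin, with 95 nt, and Grpel2 with 98 nt, and their matches were 35, 26 and 43.5 nt from the centre, that of Grpel2 close to the edge. Tbc1d10b had 102 nt and a match 10.5 nt from the centre. Mtmr6, Ttc39b and Ubn1 had 104 nt, with matches 26.5, 5.5 and 21.5 nt from the centre. Among the genes named here, a match to bases 13 to 16 lay upstream in Mafg and Ttc39b. The 8mer sites covered in all 3 libraries numbered 54.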

How the data were processed

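Ago2 HITS‐clip was performed on 3 N2A samples. Per the labels and the submitters' processing notes, reads went through FastQC, cutadapt and STAR with the mm10 build. Versions, the peak caller and its threshold are not given in the sources used here. The authors deposited peaks called per sample as intervals, with a score that is 60 for nearly all of them and was not used. Peaks appear padded by about 30 nt on each side. The table has 0 other columns of values.

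The longest 3′UTR of each of 21028 protein-coding genes came from GENCODE mouse M21, with sequence from GRCm38.p6. Density was log2((observed + 0.5)/(expected + 0.5)) for each 7-mer with at least 500 matches, less the median of 7-mers with as many A and T letters, tested against 0 with limma 3.58.1 (R 4.3.3), two-sided, with Benjamini-Hochberg adjustment. Features were fitted with conditional logistic regression (statsmodels 0.14.6) and adjusted over 5 features. Both steps were tried on simulated data simpler than these: peaks were placed independently in each library, and strata were artificial. The simulations thus do not cover base composition shared by the peaks or the strata of these data. Wilson intervals (95%) cover counting of matches only. Sites named were the 12 8mer sites covered in all 3 libraries in the shortest stretches, up to 10 genes with 2 or more members, listed genes and those at the limit of the rule. Of the 12, 1 is not reported here. Members and lists were chosen with earlier results of these data known. Figures were drawn with matplotlib 3.10.9, and other steps ran in Python 3.11.15 with scipy 1.17.1.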

Additional observations from a re-analysis of the deposited data

How the results depend on the processing

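In place of 567 member matches, the count was 14 with the strand of every peak reversed, 208 with 30 nt trimmed from each side of every peak, 102 with cover in all 3 libraries and 295 with only matches followed by A, and the count lay between 146 and 475 without single replicates. The centred log2 density of the miR-30 match reversed to -0.041 with the strand reversed, and passed the test at 0.36 with pooled density and at 0.22 without centring, while the 9 other settings kept it above 0 and short of the threshold. The odds ratio for flank A/U lost its call at 1.40 with peaks of 86 to 200 nt, at 1.15 with cover in all 3 libraries and at 1.31 to 1.60 without single replicates. That for distance passed the test at 0.642 in plain logistic regression, which does not separate distance from 3′UTR length. The held-out ratio moved to 2.93 with trimmed peaks, and with the strand reversed 0 of 6 miR-30 hairpins had a peak in 2 libraries, against 4. Leaving out the 3′UTR with the most comparison matches, chosen after seeing the data, changed no call of the features. The causes were not tested. With the strand reversed, the features and the held-out ratio could not be fitted, and the feature of a neighbouring match could not be fitted under 4 other settings. No paired analysis was possible because all libraries formed 1 group. The unknown read depth and the few comparison matches limit what could be detected.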

Other observations

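The matches of the passenger strands of the family did not pass the test either. The match of miR-30a-3p and miR-30e-3p, ACTGAAA, had a centred log2 density of 0.02 ± 0.02 (SD, n = 3; limma adjusted p = 0.844), and that of miR-30c-1-3p and miR-30c-2-3p, TCTCCCA, had -0.10 ± 0.03 (adjusted p = 0.214), below 0 in 3 of 3 libraries.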
